A study of Homo sapiens with 3 samples.

Results

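The genes described here are ATOH1, NEUROG3, REG4, HEPACAM2, GCG, TTR and SOX4, 7 of the 18417 genes named alone by at least 1 probe set of the array. They were brought together as genes of secretory cell fate in the gut and its endocrine relatives, and were chosen by their measured differences from the control siRNA: ATOH1, REG4, NEUROG3 and HEPACAM2 stood higher, and GCG and TTR lower, when the SLC45A3-ELK4 chimeric transcript was targeted. Those differences are given as descriptions, with no test. Each of the 7 genes had 1 probe set, and all 7 passed the filter on dim genes, a mean over the arrays of at least 5.12 on the log2 scale (the 30th percentile of genes). NEUROG3 passed it through its higher arrays, since its control value lay below that level. GCG passed it through its control array, since both siRNA values lay below that level.

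The cells were LNCaP, an established human line from a prostate carcinoma metastasis, grown in RPMI1640 with 10% serum and transfected with siRNA by RNAiMAX. The arrays measured total RNA 72 hours later: 1 array with the siRNA siSE1, 1 with siSE2, both against the chimeric transcript, and 1 with a negative control siRNA. On the array titled siSE2 the transfection label names siSE1, while the title, source and description name siSE2, so comparisons of the siRNAs hold only if the title is right. By their titles the siRNA arrays carry different siRNAs, so the spread between them includes any difference between the siRNAs. No label says that cultures with the same siRNA were replicated, so siRNA, culture and technical differences cannot be told apart in that spread. The control has no replicate. The array medians lay between 5.80 and 5.84, and the arrays correlated with Pearson's r from 0.989 to 0.993 over 33297 probe sets. The deposited values were taken as log2 from their range. All 11 luminal prostate markers analysed here passed the filter, as did 4 of 6 basal, 8 of 10 stromal and 4 of 7 blood cell markers. A further 4 luminal, 1 basal and 1 blood cell markers were not among the genes named alone by a probe set. The stromal genes FN1, which encodes fibronectin, and VIM, which encodes vimentin, and the macrophage gene CD68 were among those that passed, while DCN, LUM, PTPRC, CD3E and HBB did not.

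ATOH1 is a basic helix-loop-helix (bHLH) transcription factor that directs progenitors of the gut to the secretory fate, from which goblet, Paneth and enteroendocrine cells derive, and it also directs hair cells of the inner ear and granule neurons of the cerebellum. Notch signalling, through HES repressors, holds ATOH1 down in neighbouring cells. NEUROG3, a related bHLH factor, commits secretory progenitors of the gut and progenitors of the pancreas to the endocrine fate. Such factors pair with E proteins and bind E-boxes, short DNA sites with the letters CANNTG, and ID proteins block that pairing.

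The promoters of these genes are shown because the factors in the group are themselves E-box binding proteins. The windows run from 250 bases before to 50 bases after each annotated start, in RefSeq's GRCh38.p14 annotation, and 6 of the 7 genes matched an entry. TTR is named only. Capitals mark every match to CANNTG, which reads the same on both strands, and the sequences are given on the strand of the gene. ATOH1 lies at chr4:93828503-93828802 (plus strand), NEUROG3 at chr10:69573373-69573672 (minus), REG4 at chr1:119811411-119811710 (minus), GCG at chr2:162152198-162152497 (minus) and SOX4 at chr6:21593501-21593800 (plus).
ATOH1: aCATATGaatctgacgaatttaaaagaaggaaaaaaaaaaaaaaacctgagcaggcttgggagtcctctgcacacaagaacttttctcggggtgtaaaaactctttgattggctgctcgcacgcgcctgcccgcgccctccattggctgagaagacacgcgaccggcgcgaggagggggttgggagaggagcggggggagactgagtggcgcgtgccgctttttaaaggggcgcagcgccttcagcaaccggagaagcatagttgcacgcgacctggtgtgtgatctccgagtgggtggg
NEUROG3: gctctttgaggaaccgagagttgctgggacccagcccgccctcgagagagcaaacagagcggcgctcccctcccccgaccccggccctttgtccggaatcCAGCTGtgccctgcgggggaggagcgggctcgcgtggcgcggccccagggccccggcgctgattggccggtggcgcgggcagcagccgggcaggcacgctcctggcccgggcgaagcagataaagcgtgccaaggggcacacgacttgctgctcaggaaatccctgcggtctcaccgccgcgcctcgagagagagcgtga
REG4: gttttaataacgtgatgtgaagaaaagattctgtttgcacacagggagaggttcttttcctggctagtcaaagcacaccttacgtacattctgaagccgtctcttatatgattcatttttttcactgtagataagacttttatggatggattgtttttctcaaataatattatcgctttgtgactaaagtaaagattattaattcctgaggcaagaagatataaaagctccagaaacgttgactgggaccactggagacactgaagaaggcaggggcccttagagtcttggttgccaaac
GCG: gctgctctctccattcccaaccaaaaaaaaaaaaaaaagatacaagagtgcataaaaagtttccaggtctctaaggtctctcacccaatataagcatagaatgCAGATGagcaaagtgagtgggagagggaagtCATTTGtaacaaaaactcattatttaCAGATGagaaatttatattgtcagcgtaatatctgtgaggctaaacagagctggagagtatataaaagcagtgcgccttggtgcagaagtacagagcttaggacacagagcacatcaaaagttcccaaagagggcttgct
SOX4: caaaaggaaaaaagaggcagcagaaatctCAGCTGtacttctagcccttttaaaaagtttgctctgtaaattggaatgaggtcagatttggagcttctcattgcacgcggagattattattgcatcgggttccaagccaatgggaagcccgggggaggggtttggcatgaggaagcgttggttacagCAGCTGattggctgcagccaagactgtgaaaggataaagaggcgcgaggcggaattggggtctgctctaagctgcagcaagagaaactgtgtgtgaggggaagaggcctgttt

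The windows differed in their E-boxes. The ATOH1 window held 1, CATATG, 249 bases before the start, and the REG4 window held 0. NEUROG3 held CAGCTG, a core used by many bHLH factors, 150 bases before its start. SOX4 held CAGCTG at 221 and at 63 bases before its start. GCG, the gene with lower signal, held CAGATG at 147 and at 90 bases before its start, with CATTTG between them. HEPACAM2 has 2 annotated starts. Its outer window (chr7:93232149-93232448, minus strand) held CAGCTG and CACGTG at 207 and 170 bases before the start, and its inner one (chr7:93219522-93219821, minus strand) held CAAATG and CACCTG. Among all 35116 windows of the table, 68.7% held CANNTG, 17.9% CAGCTG and 14.7% CAGATG or its reverse, CATCTG. The site CACNAG (or its reverse, CTNGTG), bound by HES repressors, occurred at 178 bases before and 23 bases after the ATOH1 start and in both HEPACAM2 windows, against 38.0% of all windows. A match gives letters only and is no evidence of binding.

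**Figure D1:**
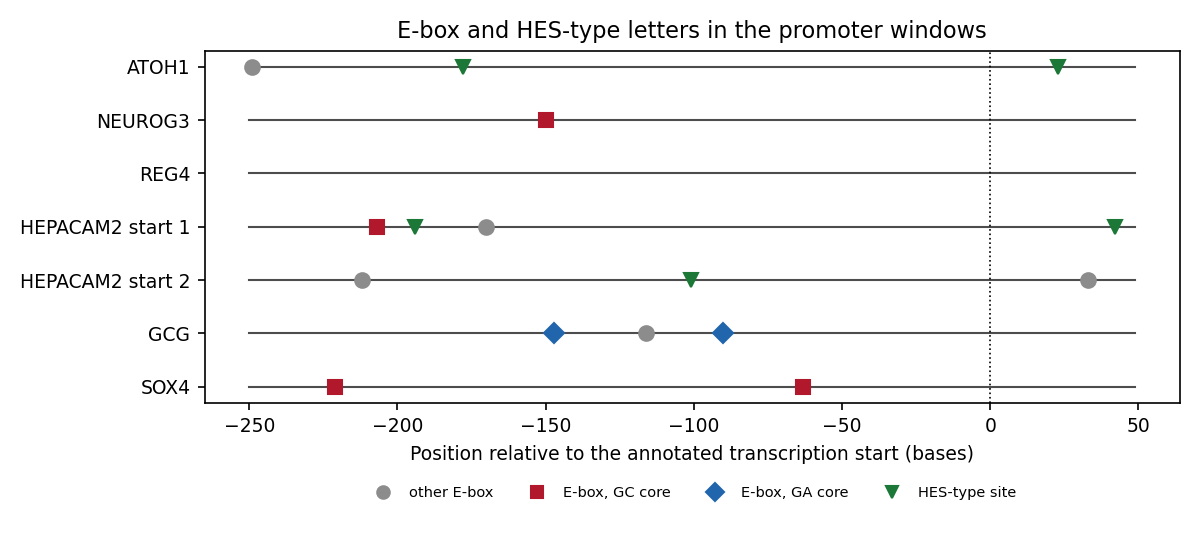
Positions of E-box letters (grey circles, or red squares with a GC core and blue diamonds with a GA core) and HES-type letters (green triangles) in the promoter windows, in bases from the annotated start (dotted line). GCG carries GA cores at 147 and 90 bases before its start, SOX4 GC cores at 221 and 63, and REG4 no match.

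ATOH1, at the head of the group, had siRNA values farther from the control than any other member. Its probe set (8096461) read 10.90 with siSE1 and 10.67 with siSE2, against 8.56 on the control array (log2). Both siRNA arrays lay above the control by more than they lay from each other. The mean of the siRNA arrays was 10.78 ± 0.16 (SD, n = 2), which is 4.66-fold above the control (log2 difference 2.22). By array, the difference was 5.04-fold with siSE1 and 4.31-fold with siSE2. ATOH1 ranked first in this direction among 12892 genes tested. ATOH1 was also well above the filter without the chimera siRNAs, so LNCaP cells gave an ATOH1 signal on the control array. In bulk RNA a change in the number of cells that express a gene and a change in RNA per cell cannot be told apart.

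NEUROG3, the endocrine commitment factor, read 6.15 with siSE1 and 5.98 with siSE2, against 5.08 on the control array (probe set 7934083). Its siRNA mean, 6.06 ± 0.11 (SD, n = 2), was 1.97-fold above the control, rank 21 of the 12892 genes. The control value was below the filter level of 5.12 and both siRNA values were above it. NEUROG3 and ATOH1 were both slightly higher with siSE1 than with siSE2, by 0.16 and 0.22 on the log2 scale. These distances lie inside the usual range, since the median distance between the siRNA arrays over all genes tested was 0.12 and its 90th percentile 0.33.

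SOX4, an HMG-box factor that acts early in endocrine and tuft cell differentiation in the mouse, had the smallest difference of the group. It read 8.17 with siSE1 and 8.23 with siSE2, against 7.69 on the control array (probe set 8117165). The siRNA mean of 8.20 ± 0.04 (SD, n = 2) was 1.43-fold above the control. SOX4 was the only member below 1.5-fold, at rank 210.

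REG4 and HEPACAM2 encode products of secretory cells. REG4, a secreted C-type lectin made by goblet and enteroendocrine cells, read 6.74 with siSE1 and 7.14 with siSE2, against 5.49 on the control array (probe set 7919067). The siRNA mean was 6.94 ± 0.28 (SD, n = 2), 2.74-fold above the control and rank 4 of the genes tested. REG4 was the member on which the siRNAs differed most: it was 2.39-fold above the control with siSE1 and 3.15-fold with siSE2, the opposite order to ATOH1, and the distance of 0.40 lay above the 90th percentile given above. HEPACAM2, an immunoglobulin-family membrane protein found in goblet and other secretory cells, read 6.17 with siSE1 and 6.24 with siSE2, against 5.20 on the control array (probe set 8140984). Its siRNA mean of 6.21 ± 0.05 (SD, n = 2) ranked 18 in this direction, 1.96-fold above the control with siSE1 and 2.05-fold with siSE2. The control value of HEPACAM2 was 0.09 above the filter level and that of REG4 0.37 above it.

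GCG and TTR stood on the other side. GCG encodes proglucagon, from which glucagon is cut in islet alpha cells and GLP-1 in intestinal L cells. It read 4.99 with siSE1 and 4.97 with siSE2, against 6.04 on the control array (probe set 8056250). Its siRNA mean, 4.98 ± 0.01 (SD, n = 2), was 2.08-fold below the control, rank 22 in that direction. Both siRNA values lay below the filter level, and the control value above it. TTR encodes transthyretin, a carrier of thyroxine and of retinol-binding protein that is made in liver, choroid plexus and islet cells. It read 6.34 with siSE1 and 6.06 with siSE2, against 7.12 on the control array (probe set 8020795). Its siRNA mean of 6.20 ± 0.19 (SD, n = 2) was 1.89-fold below the control, rank 45. The difference was 1.72-fold with siSE1 and 2.08-fold with siSE2.

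**Figure D2:**
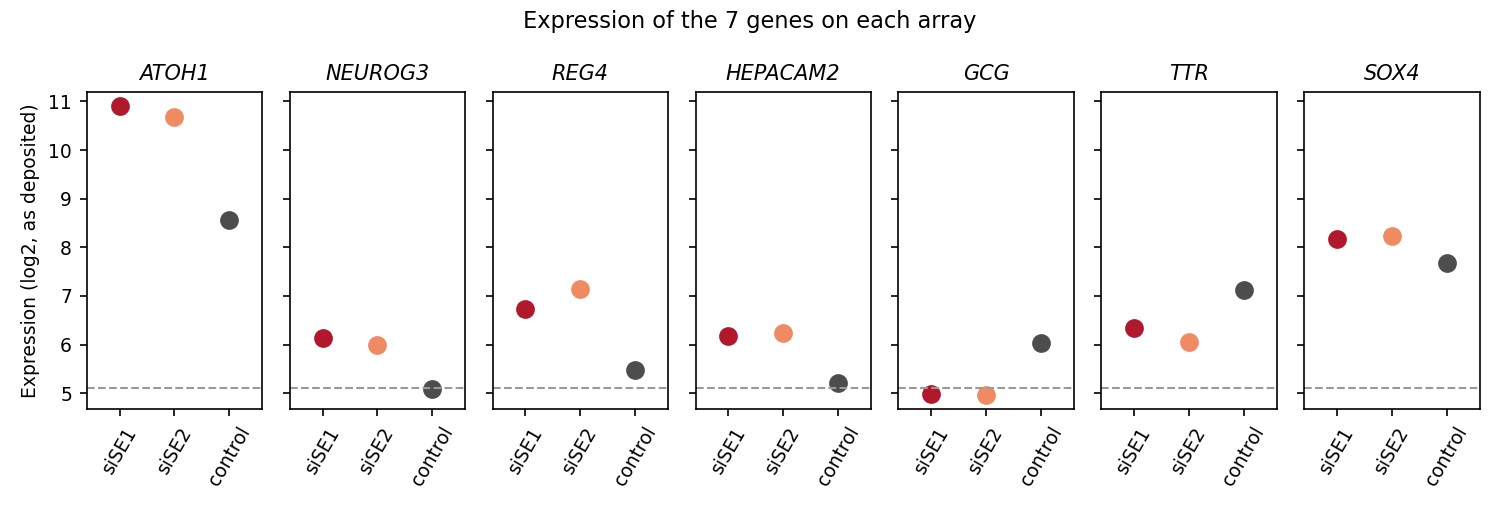
Deposited log2 expression (vertical axis) of each gene on the siSE1, siSE2 and control arrays, 1 point per array, with the filter level of 5.12 dashed. The siRNA points lie above the control in ATOH1, NEUROG3, REG4, HEPACAM2 and SOX4 and below it in GCG and TTR.

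The members thus fell on 2 sides: 5 above the control on both siRNA arrays and 2 below it. Of the 7, 4 were at least 1.5-fold higher with both siRNAs and 2 at least 1.5-fold lower, where 0.582% and 1.53% of the 12892 genes tested met those rules. Nothing is read from these counts, because the same contrast chose the genes. In each member the nearer siRNA array was farther from the control than the siRNA arrays were from each other, from 2.87 times that distance in TTR to 52.7 times in GCG. The same held for 46.2% of the genes tested. Nothing is read from this comparison either, because the members were chosen by their differences from the control. In GCG the siRNA values lay only 0.02 apart, and both were below the filter level. The siRNAs were each set against the same control array, so error in that array would move both differences together.

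**Figure D3:**
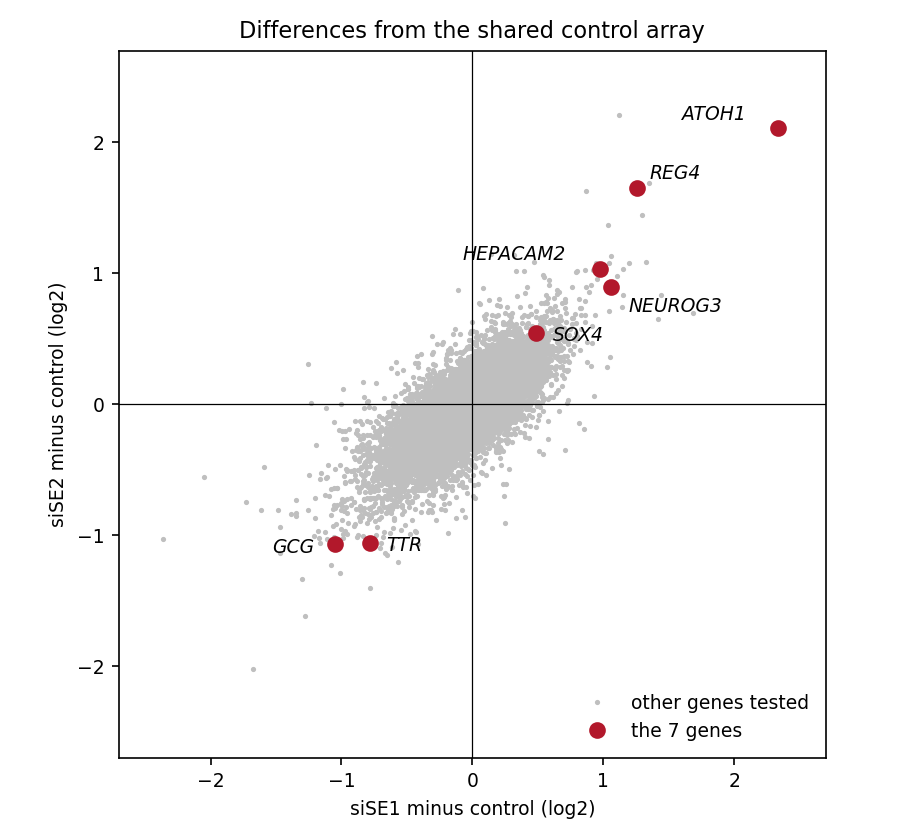
Log2 difference from the shared control array with siSE1 (horizontal) and siSE2 (vertical) for the genes tested (grey) and the 7 genes (red). ATOH1 lies farthest to the upper right, at 2.33 and 2.11, SOX4 lies at the edge of the grey cloud, at 0.49 and 0.54, and GCG and TTR lie at the lower left.

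The genes whose pair of differences lay nearest to that of a member were found by distance on the log2 scale, over 2 differences from 3 arrays. ATOH1 had no close neighbour: the nearest was OR51E1, an olfactory receptor, at 1.07, followed by REG4 at 1.17 and SLPI, a protease inhibitor, at 1.22. OR51E1 was also nearest to REG4, at 0.10, with differences of 1.35 (siSE1) and 1.69 (siSE2), against 1.26 and 1.66 for REG4. CDKN1A, the CDK inhibitor p21, and TP53INP1, a p53-induced gene, came next to REG4 at 0.22 and 0.36. NEUROG3 lay beside NEK7, a kinase, at 0.04, DUSP4, a MAP kinase phosphatase, at 0.09, and CD24, a surface glycoprotein with near-identical pseudogene copies, at 0.11. GCG lay beside SLC26A2, a sulfate transporter, at 0.05, and beside the histone gene H2AC20, one of several similar copies, and CEP55, a cytokinesis gene, both at 0.08. TTR lay beside MEGF9 at 0.03 and CLGN, a testis chaperone, and UBAC1, both at 0.08.

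Related genes were then examined in 9 lists that together hold 243 genes besides the members, of which 138 were tested. The others were too dim or were not among the genes named alone by a probe set. They were compared with limma over all genes tested, with Benjamini-Hochberg adjustment. By this test 1 related gene rose and 1 fell, where 0.248% of all genes tested rose and 0.714% fell. MYO6, an unconventional myosin of hair cells that many epithelia also express, read 9.93 with siSE1 and 10.06 with siSE2, against 9.17 on the control array. MYO6 rose 1.78-fold (log2 0.83 ± 0.15, SE, n = 2 against 1; limma, adjusted p = 0.0385). TCF4, an E protein that pairs with bHLH factors such as ATOH1, read 6.62 on both siRNA arrays, against 7.44 on the control array. TCF4 fell 1.77-fold (log2 -0.83 ± 0.14, SE; limma, adjusted p = 0.0378). The spread in this fit rests on 1 residual degree of freedom. Neither gene passed when dim genes were kept in (limma, adjusted p = 0.126 for MYO6 and 0.124 for TCF4) or when the filter was raised to the 50th percentile (0.0509 and 0.0503), and MYO6 did not with equal array medians (0.057).

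Brightness moves with direction in these data and bears on every list. Among the 3683 genes tested between the 30th and the 50th percentile of brightness, the median difference was 0.08 and 51.2% were higher on both siRNA arrays. Among the 5525 genes above the 70th percentile the median was -0.06 and 28.3% were higher on both. Over all genes tested the median was -0.02, with 36.4% higher on both and 41.7% lower on both. Many genes of the lists below are dim, and the part of brightness in their medians was not tested. The filter acts on the mean over the 3 arrays, so a dim gene can pass it through higher siRNA values alone. Besides LYZ and CD14, this holds below for DLL4 (control 5.04), AQP8 (5.08), MYO7A (5.02) and AMBP (4.92). Their own differences thus helped them to be tested. The part of the filter in the list counts was not tested. The counts of 0 below are limma's after adjustment; before adjustment, at a p under 0.05, 6.46% of all genes tested were higher and 11.3% lower, and each list's own count at that level is given with it. A range after a list's median is that of the median over 6 other settings (3 normalizations, the highest probe set, dim genes kept in, or a 50th percentile filter).

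Transcription factors of the proneural and secretory lineages had a median of 0.19 (0.13 to 0.22) over 27 tested genes, 18 higher and 3 lower on both siRNA arrays, and 0 passed (8 higher and 0 lower before adjustment). Of the 27, 15 lay in the dimmest tested range. The factors with the largest smaller difference were RFX3, of ciliated and endocrine cells, KLF4, of goblet cells, CREB3L1, of secretory cells, and ATOH8, a distant relative of ATOH1. Their log2 differences were 0.52 ± 0.14 for RFX3, 0.68 ± 0.18 for CREB3L1, 0.52 ± 0.15 for KLF4 and 0.43 ± 0.14 for ATOH8 (SE; limma, adjusted p from 0.102 to 0.165). The following factors were chosen after their values were seen, as well known genes downstream of ATOH1 in the gut. SPDEF, a goblet and Paneth cell factor also made in prostate epithelium, read 9.13 with siSE1 and 9.56 with siSE2, against 9.71 on the control array (limma, adjusted p = 0.332). GFI1, a transcriptional repressor that acts within the secretory lineage, read 5.11 and 4.99 with the siRNAs, against 4.97 on the control array, and was too dim to be tested. INSM1, an endocrine factor, read 6.96 and 6.84 with the siRNAs, against 6.61 on the control array (limma, adjusted p = 0.327). SPDEF was thus below the control, and GFI1 and INSM1 above it, on both siRNA arrays, with no passing test. RFX6, also chosen after its values were seen, had the largest mean difference of the tested factors in this list, 0.71. It read 7.63 with siSE1 and 6.94 with siSE2, against 6.58 on the control array (limma, adjusted p = 0.173).

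Among partners and inhibitors of bHLH factors the median was -0.03 (-0.10 to 0.02) over 16 tested genes, with 6 higher and 6 lower on both siRNA arrays (0 higher and 3 lower before adjustment). It was -0.04 with siSE1 and 0.05 with siSE2, so it has no settled direction. TCF4 is the member of this list that fell. The E protein genes TCF3 and TCF12, chosen for comparison after their values were seen, differed by 0.06 and -0.09. ID1 and ID2, which block E protein pairing, differed by -0.61 ± 0.15 and -0.35 ± 0.15 without passing (SE; limma, adjusted p = 0.0905 and 0.251). HES7 differed by 0.24 ± 0.14 (adjusted p = 0.412). HES1, the Notch-driven repressor of ATOH1 in the gut, read 8.20 with siSE1 and 8.43 with siSE2, against 8.42 on the control array, and it was chosen after its values were seen.

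Notch ligands, receptors and processing genes had a median of -0.04 (-0.10 to -0.02) over 27 tested genes, 9 higher and 11 lower on both siRNA arrays, and 0 passed (5 higher and 1 lower before adjustment). The ligand DLL1, which ATOH1-positive cells present to their neighbours, read 6.71 with siSE1 and 6.97 with siSE2, against 6.29 on the control array (log2 difference 0.55 ± 0.16, SE). DLL4, another ligand, differed by 0.52 ± 0.15, the receptor NOTCH1 by 0.51 ± 0.15 and NRARP, a feedback inhibitor, by 0.36 ± 0.14 (limma, adjusted p from 0.122 to 0.222). These genes were above the control with both siRNAs, but none passed over all genes tested.

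Most tested products of goblet and Paneth cells read above the control. The median was 0.33 (0.19 to 0.33) over 14 tested genes, 12 of which were higher on both siRNA arrays and 0 lower, and 0 passed (7 higher and 0 lower before adjustment). Of these, 10 lay in the dimmest tested range, and 17 others, among them the Paneth defensins DEFA5 and DEFA6, were too dim to be tested. LYZ, which encodes lysozyme and is also a blood cell marker, read 6.09 with siSE1 and 5.11 with siSE2, against 4.41 on the control array (limma, adjusted p = 0.0989). It passed the filter through its siSE1 array, since its siSE2 and control values lay below the level of 5.12. FCGBP, a mucus protein, differed by 0.52 ± 0.14, AGR2, a disulfide isomerase for mucins, by 0.56 ± 0.16 and MUC6, a gel-forming mucin, by 0.44 ± 0.15 (SE; limma, adjusted p from 0.114 to 0.168). All 4 tested blood cell markers were higher on both siRNA arrays, with a median difference of 0.28 and a median level of 6.16 with siSE1 and 5.85 with siSE2, against 5.57 on the control array. Apart from LYZ, CD68 differed by 0.30, CD14 by 0.27 and TYROBP by 0.17, and none passed. Of the 4, 3 lay in the dimmest tested range. CD14 passed the filter through its siRNA arrays, since its control value of 5.03 lay below that level. PTPRC, CD3E and HBB were too dim to be tested. The part of blood cell RNA in the goblet and Paneth list was not tested.

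Hormones and granule proteins of enteroendocrine and islet cells gave a median of 0.10 (0.04 to 0.10) over 11 tested genes, 5 higher and 3 lower on both siRNA arrays, and 0 passed (1 higher and 0 lower before adjustment). GAST, the gene of the stomach hormone gastrin, differed by 0.40 ± 0.15, PCSK1N, an inhibitor of hormone processing, by 0.24 ± 0.14, MAFA, a beta cell factor, by 0.27 ± 0.15 and DPP4, the peptidase that inactivates GLP-1, by -0.29 ± 0.16 (SE; limma, adjusted p from 0.200 to 0.417). A further 15 genes were too dim to be tested, including the granule genes CHGA, CHGB, SCG2 and SCG3. CHGA read 4.31 with siSE1 and 4.51 with siSE2, against 4.30 on the control array. These granule genes lay below the filter level on average over the arrays, as did the hormone genes GIP, CCK and NTS.

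Absorptive and gut identity genes had a median of 0.16 (0.07 to 0.16) over 11 tested genes, 10 of them in the dimmest tested range. Of the 11, 10 were higher and 0 lower on both siRNA arrays, and 0 passed (1 higher and 0 lower before adjustment). AQP8, a water channel, differed by 0.33 ± 0.14, ALPI, the intestinal alkaline phosphatase, by 0.30 ± 0.15, SLC5A1, a glucose transporter, by 0.27 ± 0.14 and CDX1, an intestinal homeobox factor, by 0.16 ± 0.14 (SE; limma, adjusted p from 0.260 to 0.597). The enterocyte genes FABP2, SI, SLC26A3 and CDH17 were too dim to be tested, as were 11 others of this list.

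Genes that depend on ATOH1 in hair cells, Merkel cells and granule neurons of the mouse had a median of 0.07 (0.03 to 0.11) over 14 tested genes, 6 higher and 3 lower on both siRNA arrays, of which MYO6 alone rose (3 higher and 0 lower before adjustment). CBFA2T2 differed by 0.36 ± 0.14, MYO7A, another hair cell myosin, by 0.37 ± 0.15 and the homeobox factor LHX2 by -0.27 ± 0.14, none passing (SE; limma, adjusted p from 0.221 to 0.358). The other SOX genes, as relatives of SOX4, had a median of 0.15 (0.11 to 0.21) over 12 tested genes, 9 higher and 1 lower on both siRNA arrays, and 0 passed (2 higher and 0 lower before adjustment). SOX8 read 6.84 with siSE1 and 6.63 with siSE2, against 6.10 on the control array, a log2 difference of 0.63 ± 0.15 (SE; limma, adjusted p = 0.0842). SOX3, SOX18 and SOX11, the last from the same subgroup as SOX4, differed by 0.38 ± 0.14, 0.28 ± 0.14 and 0.23 ± 0.15. SOX4 itself, at 0.52, lay below SOX8 and above all other SOX genes tested.

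Partners of TTR and other plasma proteins of hepatocytes showed no shared direction, with 4 higher and 3 lower among 7 tested genes, and 0 passing (2 higher and 2 lower before adjustment). Their median of 0.26 turned to -0.26 when the 50th percentile was the filter level and was 0.05 when dim genes were kept in. THRB, a receptor for thyroid hormone, read 6.83 with siSE1 and 6.92 with siSE2, against 7.57 on the control array (log2 difference -0.70 ± 0.14, SE; limma, adjusted p = 0.058). HPX, a heme carrier of plasma, differed by -0.33 ± 0.15, AMBP by 0.40 ± 0.15 and DIO1, a deiodinase of thyroxine, by 0.50 ± 0.20 (limma, adjusted p from 0.199 to 0.281). RBP4, the retinol carrier that TTR binds, was chosen after its values were seen and differed by 0.28 (limma, adjusted p = 0.353). ALB, the albumin gene, was too dim to be tested, at 4.76 with siSE1 and 4.49 with siSE2, against 5.25 on the control array.

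**Figure D4:**
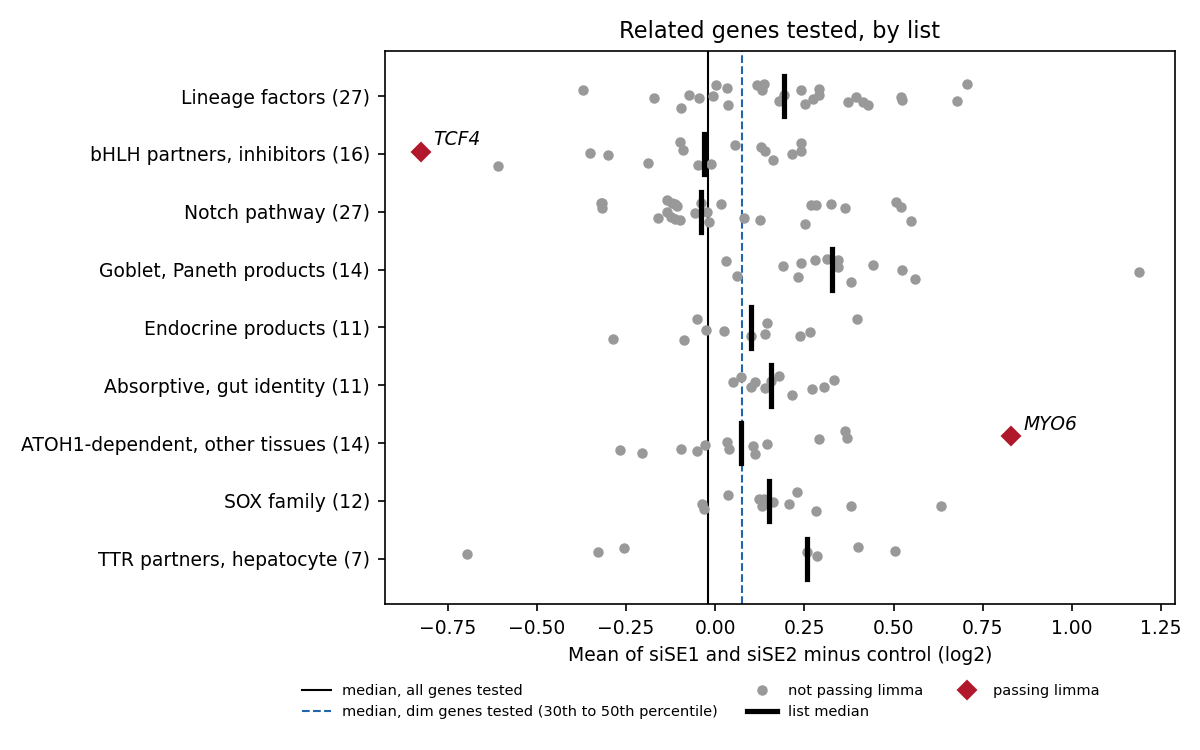
Mean of siSE1 and siSE2 minus control (log2, horizontal) for the tested genes of the 9 related lists (number of genes in parentheses), with list medians as thick bars. The thin solid line is the median of all genes tested (-0.02) and the dashed line that of the dimmest tested range (0.08). Red diamonds mark MYO6 and TCF4, which passed limma, and the goblet and Paneth list has the highest median, 0.33.

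Markers of the prostate epithelium and of other cell types were read beside these lists. The luminal prostate markers had a median of 0.06 over 11 tested genes, 5 higher and 4 lower on both siRNA arrays. ACP3 differed by 0.76 ± 0.15, KRT8 by 0.43 ± 0.14, KRT18 by 0.42 ± 0.15 and KLK3 by -0.39 ± 0.14 (SE, limma, adjusted p from 0.0569 to 0.205). Basal epithelial markers had a median level of 5.95 with siSE1 and 5.92 with siSE2, against 5.82 on the control array, over 4 tested genes, of which 3 were higher and 0 lower on both siRNA arrays (median difference 0.20). ITGB4 differed by 0.21, LAMB3 by 0.24 and KRT14 by 0.19. All 4 tested basal markers lay in the dimmest tested range. Stromal markers had a median level of 6.12 and 6.17 with the siRNAs, against 6.21 on the control array. Over these 8 tested genes 3 were higher and 3 lower on both siRNA arrays, with a median difference of 0.02, opposite in sign to the shift of the median level. ACTA2 differed by -0.47, VIM by -0.25, COL3A1 by 0.15 and COL1A2 by 0.13. None of the 4 marker lists held a gene that passed; before adjustment 3 luminal markers and 1 blood marker were higher, and 1 luminal and 1 stromal marker lower.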

How the data were processed

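RNA of 3 arrays was analysed: siSE1, siSE2 and the negative control. The authors deposited log2 values for 33297 probe sets, which per the submitters' processing notes came from Affymetrix Expression Console. Not given in the sources used here: its algorithm, the normalization, the background correction and the genome build. The log2 scale was inferred from the range, 1.43 to 13.9. The platform annotation named 1 gene for 19460 probe sets, several for 1754 and none here for 12083. Of the 19460, 19429 matched RefSeq by gene identifier. Probe sets of a gene were averaged (18417 genes), and 5525 genes with a mean below the 30th percentile were left out.

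The siRNA arrays (n = 2) were compared with the control (n = 1) by limma 3.58.1 in R 4.3.3 (lmFit, eBayes, two-sided, Benjamini-Hochberg over 12892 genes, threshold 0.05). The spread comes from the siRNA arrays alone, and the control is assumed to vary as they do. The fit treats siSE1 and siSE2 as replicates, so SD, SE and p rest on the distance between the siRNAs. SE is the moderated standard error. Simulated data were used to test the fit. Precision is limited by the number of arrays.

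The members and lists were chosen with earlier results of these data known. From each list the text names the genes that passed and, up to 4 in all, those whose smaller difference (of siSE1 and siSE2, in the same direction) was largest, and for 5 members the 3 nearest genes. Genes named as too dim to test, and others where the text says so, were chosen with their values in view. Promoter windows are RefSeq's, GRCh38.p14. No protein sequence was used here. Alternatives were 3 normalizations, 2 filters, the highest probe set, 2 variance priors, a 2-fold size rule and leaving out either siRNA array.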

Additional observations from a re-analysis of the deposited data

How the results depend on the processing

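The 7 members kept their direction under quantile normalization, equal array medians, cyclic loess and the highest probe set per gene, from 2.18 to 2.25 for ATOH1, 0.92 to 0.98 for NEUROG3, 1.42 to 1.46 for REG4, 0.95 or more for HEPACAM2, 0.48 to 0.58 for SOX4, -1.14 to -1.06 for GCG and -0.96 to -0.89 for TTR. The counts over all genes moved more. By limma 32 genes rose and 92 fell, against 63 risen with quantile normalization, 21 with equal array medians, 52 with a trended variance prior, 15 risen and 20 fallen with a 50th percentile filter, and 1 risen and 0 fallen when dim genes were kept in. The cause was not tested. Of the related genes, 0 rose with equal array medians (MYO6, adjusted p = 0.057), 0 rose and 0 fell with either other filter, and 2 fell with the trended prior. List medians moved by more than the spread of the siRNA arrays in 28 of 72 cases. The endocrine median was 0.05 with quantile normalization, 0.06 with equal array medians and 0.04 with cyclic loess, against 0.10, and the TTR partner median was -0.26 with a 50th percentile filter, against 0.26. At least 1.5-fold with both siRNAs were 75 genes higher and 197 lower, against 11 and 13 at 2-fold. With either siRNA array left out there were 155 to 187 higher and 364 to 551 lower, since 1 array then meets the rule alone. No paired analysis was possible because a lone control array stands against 2 siRNA arrays. Within the 150 bases nearest the start, 3 windows in place of 6 held CANNTG, 1 in place of 3 CAGCTG and 2 in place of 3 CACNAG, and 1 held CAGATG either way. The lone control array could not be left out.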
